A study of Mus musculus with 28 samples.

Results

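The 9 genes Slc1a2, Slc1a3, Apoe, Cst3, Glul, Clu, Aqp4, Gja1 and Aldoc are widely used as markers of astrocytes, and they were taken by name from the deposited count tables, which list 41549 genes. Their RNA was counted in 28 libraries of nuclei sorted from motor cortex. The 7 mice carry the numbers 17 to 23. Every mouse carried 2 vectors, AAV-Cas9-miR-124-empty in the left and AAV-Cas9-miR-124-g4 in the right motor cortex, so vector and side of the brain cannot be told apart. The nuclei were fixed, stained for the HA tag of Cas9 and sorted as HA-positive or HA-negative, which gave 4 groups of 7 libraries, HA-positive and HA-negative for each vector (called empty and g4 below). All 4 groups came from injected cortex, and uninjected tissue was not analysed here. The strain, age and sex of the mice, the time after injection and the promoter that drives Cas9 were not stated in the labels used here, nor was the meaning of g4.

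Astrocytes clear glutamate from synapses, supply lipids and energy substrates to neurons, and hold water and ion balance at the vessel wall. Slc1a2 (GLT-1) and Slc1a3 (GLAST) carry glutamate into the astrocyte, where Glul, glutamine synthetase, turns it into glutamine. Apoe and Clu (clusterin) are secreted lipoprotein components, Cst3 (cystatin C) is a secreted inhibitor of cysteine proteases, Aqp4 is the water channel of the endfeet, Gja1 (connexin 43) forms gap junctions, and Aldoc is the brain isoform of the glycolytic enzyme aldolase. None of these transcripts is exclusive to astrocytes: Cst3 and Apoe are also abundant in microglia, Glul in oligodendrocytes, and Slc1a2 is transcribed in part of the neurons. The microRNA miR-124, named in both vectors, is a neuronal microRNA.

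Depth was low. Total counts ran from 248612 to 902944 per library, with 8687 to 13668 genes detected, and ribosomal RNA took 17.0 to 40.4% of counts. Of the 28 libraries, 4 had under 10000 genes, 3 of them empty HA-positive and 1 g4 HA-positive. In 1 library, g4 HA-positive of animal 19, the 4 Y-linked genes counted for this check held 44 counts beside 591 of Xist, and 1 other library, empty HA-negative of animal 22, had 2 beside 517. The other libraries titled animal 19 held 0 counts of Xist and 50 to 99 Y-linked counts, so the g4 HA-positive library did not match them. Where it came from was not tested. Counts by animal below include it as animal 19. The summed microglia and oligodendrocyte markers of animal 19's library (450.3 and 1947 CPM, counts scaled to library size) lay inside the range of the empty HA-negative libraries. In HA-positive nuclei the inhibitory neuron markers together reached 3604 ± 416 CPM (empty; mean ± SD, n = 7 here and below) and 3095 ± 643 (g4), against 1319 ± 140 and 1256 ± 188 in HA-negative nuclei.

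All 9 genes were found in the tables and had counts in every library. They held 14505 counts for Slc1a2 over the 28 libraries, 4161 for Cst3, 2197 for Glul, 1860 for Slc1a3, 1136 for Apoe, 1076 for Clu, 669 for Gja1, 611 for Aqp4 and 591 for Aldoc. Per kilobase of annotated exon, the mean levels stood in 1 order in all 4 groups: Cst3, Slc1a2, Glul, Apoe, Clu, Slc1a3, Aldoc, Aqp4, Gja1. This order depends on the exon length used, 13133 bases for Slc1a2 and 1266 for Cst3. By CPM, Slc1a2 was above Cst3 in all 4 groups. Whether the counts include reads in introns was not stated. Cst3 was apart from Slc1a2 by more than their SDs in each group, at 300 ± 58.9 against 79.9 ± 8.23 CPM per kilobase in empty HA-negative nuclei and 93.6 ± 24.5 against 47.9 ± 13.8 in empty HA-positive nuclei. From Slc1a3 down to Gja1, neighbours overlapped within their SDs in all 4 groups. Together the 9 genes made up 1116 ± 325 CPM (empty) and 1755 ± 498 CPM (g4) in HA-positive nuclei and 2010 ± 256 (empty) and 2093 ± 264 (g4) in HA-negative nuclei. The summed range was 842 to 1623 in the empty HA-positive libraries and 1704 to 2428 in the empty HA-negative ones, so those groups did not overlap. With g4 the ranges were 1295 to 2769 and 1784 to 2575, which overlapped. Much of each sum was Slc1a2, with a mean of 629 CPM in empty HA-positive and 1049 in empty HA-negative nuclei.

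**Figure D1:**
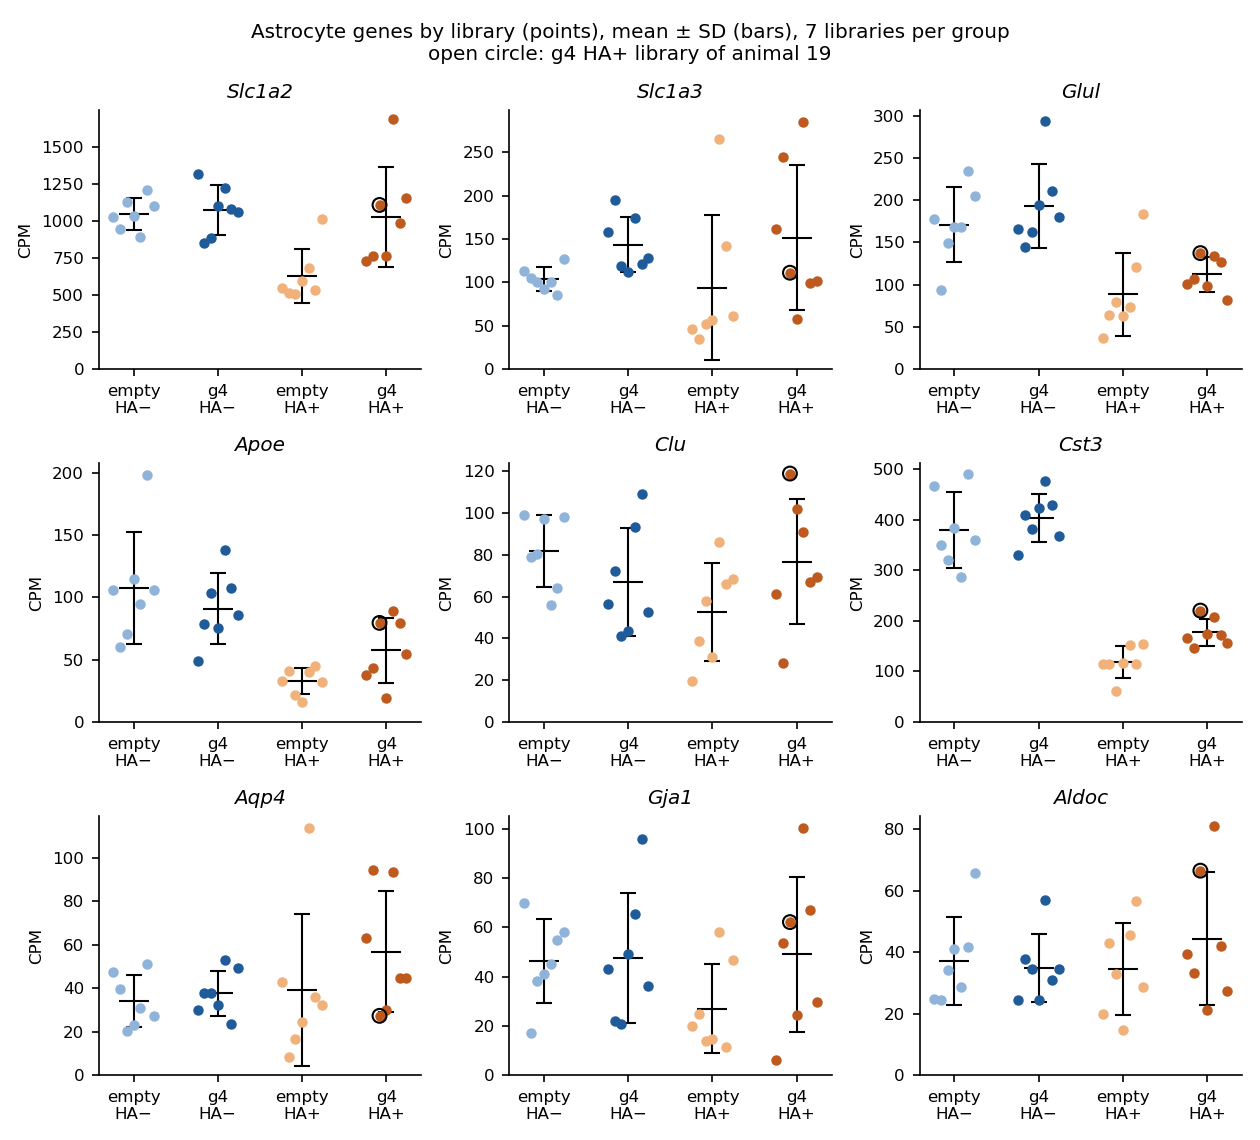
Level of each of the 9 genes in every library (vertical axes: CPM, linear from 0; points: libraries in order of animal number; bars: mean ± SD of 7 libraries). Cst3 is lower in all HA-positive libraries (at most 220 CPM) than in all HA-negative ones (at least 286 CPM), while Aqp4 and Aldoc overlap across all 4 groups; the open circle is the g4 HA-positive library of animal 19.

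The comparison of HA-positive with HA-negative nuclei asked how the sorted populations differ within 1 hemisphere. With the empty vector, 4 of the 9 genes fell in HA-positive nuclei (Apoe, Cst3, Glul and Slc1a2) and 0 rose. With the g4 vector, 2 fell (Cst3 and Glul) and 0 rose. Cst3 and Glul were thus lower in HA-positive nuclei with either vector, and Slc1a3, Clu, Aqp4, Gja1 and Aldoc passed the test with neither. A gene was called at an adjusted p under 0.05 in edgeR's quasi-likelihood test, adjusted by Benjamini-Hochberg over all genes tested. Of 5538 genes tested with the empty vector, 3.5% were called lower and 3.5% higher in HA-positive nuclei. Of 6264 genes tested with the g4 vector, 3.08% were called lower and 3.32% higher. In these bulk libraries, fewer astrocyte nuclei, less RNA per astrocyte nucleus and less RNA from other cells that hold these transcripts cannot be told apart.

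Of the 9 genes, Cst3 had the smallest adjusted p with either vector. Its level ran from 60.5 to 154 CPM (median 116) in empty HA-positive nuclei and from 286 to 490 (median 360) in empty HA-negative nuclei. The corresponding ranges with g4 were 146 to 220 (median 171) and 331 to 477 (median 408). HA-positive libraries were below all HA-negative libraries with each vector. The log2 fold change (HA-positive over HA-negative, ± SE) was -1.62 ± 0.18 with empty (adjusted p = 2.02e-07) and -1.17 ± 0.13 with g4 (adjusted p = 7.42e-08). Groups that were lower without overlap were 1.93% of the genes tested with empty and 0.702% with g4. Cst3 stands on the minus strand of chromosome 2, from 148871722 to 148875692 (GRCm38).

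Glul was the other gene that fell with both vectors. With empty it ran from 36.4 to 183 CPM (median 73.3) in HA-positive and from 94.0 to 235 (median 169) in HA-negative nuclei. With g4 it ran from 82.0 to 137 (median 107) and from 144 to 294 (median 180). The g4 groups did not overlap, while with empty 5 of 7 HA-positive libraries were below all HA-negative ones. The log2 fold change was -0.90 ± 0.26 with empty (adjusted p = 0.0275) and -0.77 ± 0.16 with g4 (adjusted p = 0.00249), and Glul was lower in 7 of 7 animals each time. The call with empty was lost when animal 17, 19, 20 or 21 was left out (adjusted p = 0.0866, 0.0783, 0.104 and 0.0712) and without the libraries under 10000 genes (0.0615), at log2 fold changes of -0.78 to -0.92. Glul lies on the plus strand of chromosome 1, from 153899944 to 153909723, and overlaps Teddm2 (opposite strand, 30 counts in all) and Mir8114 (same strand, 5 counts).

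The promoters of Cst3 and Glul are shown because these are the genes that fell with both vectors. They are RefSeq windows of 300 bases on GRCm38.p6, 250 before and 50 after the annotated start, printed 5′ to 3′ on the gene's strand. Capitals mark the motifs GGGCGG (GC box), CCAAT and TATAAA, searched on both strands and as exact letters.
Cst3, chr2:148875463-148875762, minus strand: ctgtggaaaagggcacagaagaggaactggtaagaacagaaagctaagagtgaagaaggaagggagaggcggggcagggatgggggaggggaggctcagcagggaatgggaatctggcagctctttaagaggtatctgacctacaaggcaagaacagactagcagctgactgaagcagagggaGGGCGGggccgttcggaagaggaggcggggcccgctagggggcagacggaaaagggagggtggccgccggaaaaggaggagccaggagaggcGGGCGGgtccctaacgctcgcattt
Glul, chr1:153899679-153899978, plus strand: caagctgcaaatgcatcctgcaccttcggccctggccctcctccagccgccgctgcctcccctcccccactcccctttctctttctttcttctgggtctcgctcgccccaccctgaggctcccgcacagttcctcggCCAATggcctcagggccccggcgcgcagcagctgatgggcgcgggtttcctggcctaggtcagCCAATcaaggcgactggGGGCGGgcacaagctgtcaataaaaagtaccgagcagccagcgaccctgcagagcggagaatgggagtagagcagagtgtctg
The Cst3 window holds 2 GGGCGG and no CCAAT, and the Glul window 1 GGGCGG and 2 CCAAT. Of 32851 RefSeq promoters of this length, 35.66% hold GGGCGG, 37.41% CCAAT and 13.62% TATAAA, so these matches are common.

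Of the glutamate transporters, Slc1a2 fell with the empty vector and was not called with g4, and Slc1a3 passed in neither. Slc1a2 ran from 506 to 1016 CPM (median 552) in empty HA-positive and from 893 to 1209 (median 1035) in empty HA-negative nuclei. Its log2 fold change was -0.68 ± 0.14 (adjusted p = 0.00150), lower in 7 of 7 animals, and 6 of 7 HA-positive libraries were below all HA-negative ones. With g4 it ran from 730.3 to 1687 (median 989) in HA-positive and from 851 to 1320.1 (median 1082) in HA-negative nuclei. That log2 fold change was -0.05 ± 0.16 (adjusted p = 0.908), with 3 animals higher and 4 lower. The gap between these values is the difference tested across fractions further on, which did not pass.

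Slc1a3 varied more between HA-positive than between HA-negative libraries. It ran from 34.9 to 265 CPM (median 57.0) in empty HA-positive and from 85.1 to 128 (median 101) in empty HA-negative nuclei. In that pair 5 of 7 HA-positive libraries were below and 2 above all HA-negative ones, and the log2 fold change was -0.04 ± 0.36 (adjusted p = 0.967). Both high libraries, those of animals 21 (265 CPM) and 22 (142 CPM), had under 10000 genes. Without the libraries under 10000 genes Slc1a3 was called lower, at -1.02 ± 0.25 (adjusted p = 0.00549), and without the HA-positive library of animal 21 alone it was at -0.58 ± 0.27 (adjusted p = 0.202). The part of low complexity in the level of Slc1a3 was not tested. With g4 the levels were 58.0 to 285 (median 111) in HA-positive and 112 to 195 (median 129) in HA-negative nuclei, at 0.11 ± 0.32 (adjusted p = 0.907).

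For the secreted lipoprotein components, Apoe fell with the empty vector, and Clu passed in neither comparison. Apoe ran from 16.3 to 45.3 CPM (median 33.1) in empty HA-positive and from 60.2 to 199 (median 106) in empty HA-negative nuclei, without overlap. Its log2 fold change was -1.63 ± 0.30 (adjusted p = 0.000377). With g4, Apoe ran from 19.3 to 89.3 (median 54.7) in HA-positive and from 48.9 to 138 (median 85.8) in HA-negative nuclei, which overlapped. That change was -0.65 ± 0.26 (adjusted p = 0.170), lower in 7 of 7 animals. Clu ran from 19.8 to 86.0 (median 57.8) against 55.9 to 99.2 (median 80.5) with empty, at -0.57 ± 0.29 (adjusted p = 0.278). With g4 it was at 0.22 ± 0.25 (adjusted p = 0.751), and its groups overlapped with either vector.

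The endfoot and junction genes and the aldolase did not pass the test with either vector. Aqp4 ran from 8.21 to 114 CPM (median 32.3) in empty HA-positive and from 20.1 to 51.1 (median 30.9) in empty HA-negative nuclei, at 0.27 ± 0.43 (adjusted p = 0.800). With g4 its range was 27.3 to 94.4 (median 44.7) against 23.6 to 52.9 (median 37.7), at 0.60 ± 0.31 (adjusted p = 0.310), and 3 HA-positive libraries were above all HA-negative ones. Gja1 was at -0.74 ± 0.40 with empty (adjusted p = 0.323; 11.3 to 58.2 against 16.9 to 69.9 CPM) and at 0.06 ± 0.42 with g4 (adjusted p = 0.969; 5.92 to 100.5 against 20.7 to 95.7 CPM). Aldoc, at 14.6 to 56.7 against 24.4 to 65.7 CPM with empty, came to -0.03 ± 0.36 on the log2 scale (adjusted p = 0.972). Its g4 value was 0.38 ± 0.31 (adjusted p = 0.604; 21.1 to 81.0 against 24.4 to 57.0 CPM). Gja1 had 3 to 72 counts per HA-positive library, and the SEs of these 3 genes ran from 0.31 to 0.43, against 0.14 and 0.16 for Slc1a2.

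**Figure D2:**
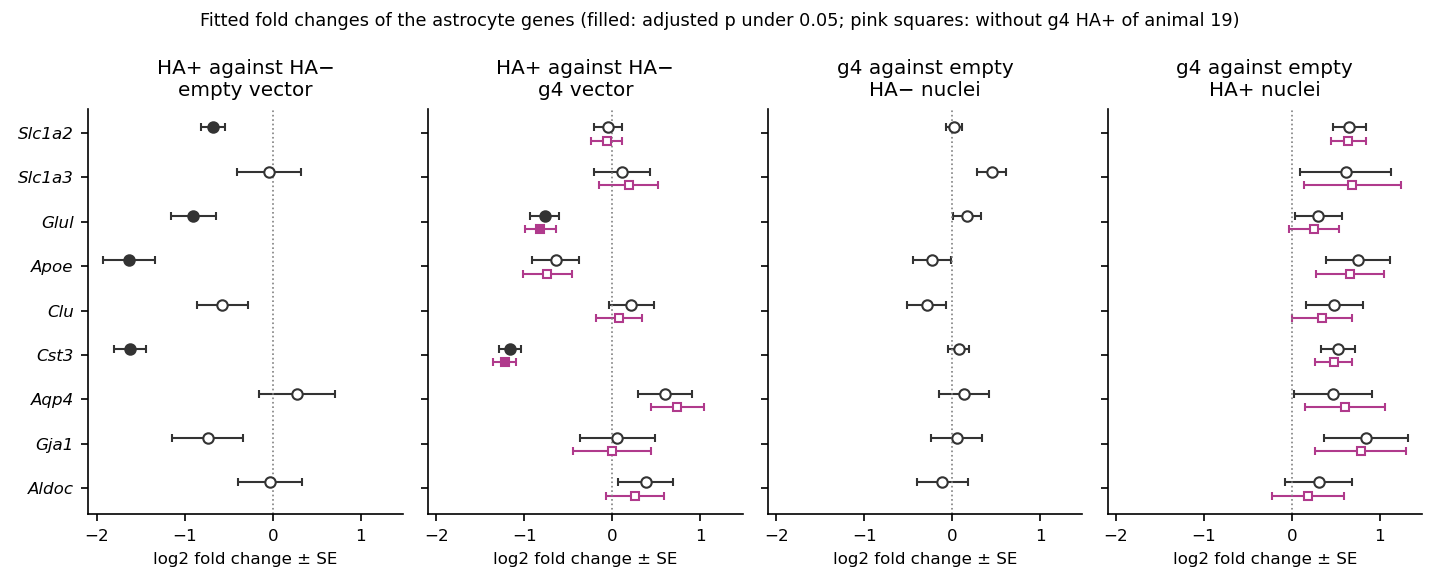
Fitted log2 fold change ± SE of each gene in 4 comparisons of 7 against 7 libraries (horizontal axis: log2 fold change; filled points: adjusted p under 0.05; pink squares: the same with animal 19's g4 HA-positive library left out). Filled points are Slc1a2, Glul, Apoe and Cst3 in the empty comparison of fractions and Glul and Cst3 in the g4 one, and all 9 points lie above 0 in g4 against empty in HA-positive nuclei with none filled.

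Markers of other glia moved with the same contrast, and by more. With empty, all 5 tested microglia markers and 9 of 10 tested oligodendrocyte markers fell in HA-positive nuclei, with median log2 fold changes of -3.78 and -3.83, against -0.68 for the 9 astrocyte genes and 0.01 for all genes tested. The other markers of these lists of 16 and 15 did not pass the count filter. Some passed only through the HA-negative libraries, such as P2ry12 and Cx3cr1 at 0 CPM in HA-positive nuclei. The filter thus favours markers that fall, so these counts and medians are no test of the lists. Excitatory neuron markers, under the same filter, had a median of -0.69 with empty, close to that of the 9 genes. Of 13 tested, 4 fell and 0 rose. All 15 summed to 1104 to 2175 CPM in empty HA-positive and 2403 to 3173 in empty HA-negative nuclei, so the fall was not limited to glial markers. The sums below take in all listed markers. The 16 microglia markers summed to 16.5 to 64.6 CPM in empty HA-positive and 348 to 779 in empty HA-negative nuclei, and Cx3cr1, P2ry12, C1qa, C1qc, Gpr34, Siglech and Tyrobp had no count in the 7 libraries of empty HA-positive nuclei. The 15 oligodendrocyte markers summed to 236 to 561 CPM in empty HA-positive and 1591 to 2612 in empty HA-negative nuclei, with Opalin at 0 in the former. Much of the HA-positive sum was Myrf, at 295 ± 106 CPM against 174 ± 78.9 in HA-negative nuclei. Myrf was the tested marker that did not fall (0.83 ± 0.34, adjusted p = 0.178). With g4, microglia markers summed to 5.11 to 57.2 CPM in 6 HA-positive libraries and 450.3 in that of animal 19, against 501 to 791 in HA-negative nuclei. Oligodendrocyte markers summed to 189 to 408 and, in animal 19, to 1947, against 1729 to 3358. The part of microglia and oligodendrocyte RNA in the lower levels of Cst3, Apoe and Glul was not tested. Without animal 19's g4 HA-positive library, Cst3 was at -1.22 ± 0.13 (adjusted p = 1.57e-08), Glul at -0.82 ± 0.17 (adjusted p = 0.00135) and Apoe at -0.74 ± 0.28 (adjusted p = 0.107). In the same fit Slc1a2 (-0.06), Gja1 (-0.00138), Clu (0.08), Slc1a3 (0.19), Aldoc (0.26) and Aqp4 (0.74) were not called.

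**Figure D3:**
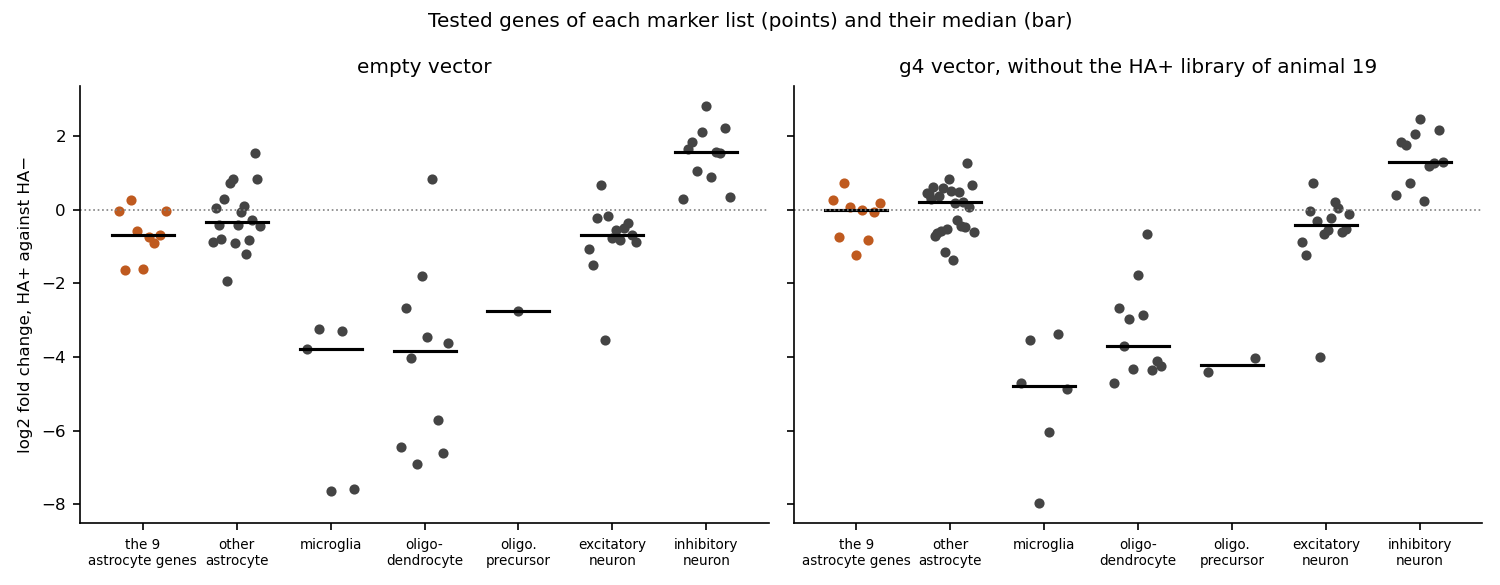
Log2 fold change of HA-positive over HA-negative nuclei (vertical axis) for each tested gene of 7 marker lists (points; bars: medians), with the empty vector (left) and with g4, leaving out animal 19's HA-positive library (right). The 9 astrocyte genes lie between -1.63 and 0.27 on the left, and microglia and most oligodendrocyte markers lie lower. Excitatory neuron markers have a median of -0.69 on the left, and inhibitory neuron markers lie above 0. Values of genes at 0 in HA-positive libraries depend on the model's prior count.

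The other astrocyte genes did not move as 1 group between the fractions. Of 40 such genes, 18 could be tested with empty, of which 2 rose and 2 fell (median -0.34), and 24 with g4, of which 3 rose and 1 fell (median 0.21). The inward rectifier Kcnj10, which takes up potassium, fell with empty: HA-negative nuclei held 52.3 ± 24.1 CPM and HA-positive nuclei 13.6 ± 15.3 (log2 fold change -1.94 ± 0.52, adjusted p = 0.0177). Ptprz1, a receptor phosphatase shared with oligodendrocyte precursors, fell by 1.20 ± 0.28 on the log2 scale (adjusted p = 0.00668). The matrix protein Sparcl1 rose with both vectors (0.83 ± 0.14 with empty and 0.67 ± 0.13 with g4). With g4, the RNA-binding protein Msi2 rose (0.86 ± 0.23, adjusted p = 0.0187) and the transcription factor Nfia fell (-1.29 ± 0.33, adjusted p = 0.0126). Summed over the 40 genes, the level was 2043 ± 339 CPM in empty HA-positive and 1862 ± 195 in empty HA-negative nuclei, of which Sparcl1 alone reached 508 ± 94.0 and 297 ± 65.6.

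Genes that work beside the 9 members were mostly not called. In the glutamate and glutamine cycle, 3 of 9 tested genes rose with empty and 0 fell: the glutamine transporter Slc38a1 (0.90 ± 0.15, adjusted p = 0.000124) and the aspartate aminotransferases Got1 (0.63 ± 0.17) and Got2 (0.60 ± 0.18). With g4, Got1 (0.68 ± 0.17) and the asparagine synthetase Asns (1.00 ± 0.29) rose. Among lipoproteins and lipid receptors, 1 of 9 fell with each vector, the lipocalin Apod, which is abundant in oligodendrocytes. Its level went from 73.5 ± 31.7 to 2.34 ± 5.35 CPM with empty (-5.16 ± 0.62) and from 83.6 ± 25.4 to 13.7 ± 22.6 with g4 (-2.41 ± 0.64, and -3.97 without animal 19's library). In the list of endfoot, gap junction and potassium uptake genes, 1 of 6 rose with each vector, the sodium pump subunit Atp1b1 (0.90 ± 0.11 and 0.68 ± 0.10). Of 14 tested aldolase and glycolysis genes, Pgam1 (0.72 ± 0.19) and Pkm (0.58 ± 0.16) rose with empty and Ldhb (0.64 ± 0.15) with g4. Of the cystatins and cathepsins besides Cst3, 0 of 3 and 0 of 4 tested were called. Without animal 19's g4 HA-positive library 1 of 4 fell, the protease gene Lgmn (legumain, named after its value was seen), at -1.35 ± 0.38 (adjusted p = 0.0174) against -0.91 ± 0.38 with it (adjusted p = 0.183). The cathepsins Ctsb (289.5 ± 40.6 against 256 ± 53.1 CPM with empty) and Ctsd (122 ± 57.9 against 133 ± 27.7) had log2 fold changes of 0.23 ± 0.15 and -0.09 ± 0.24.

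The comparison of g4 with empty in HA-positive nuclei asked what the g4 vector changed in nuclei that carry Cas9. None of the 9 genes passed the test, and all 9 had a fitted fold change above 0. Of 5011 genes tested, 0.0599% were called (3 genes by edgeR, against 335 at an unadjusted p under 0.05 and 11 by DESeq2), and 49.2% had a fold change above 0. The median of the 9 was 0.53 on the log2 scale, against -0.01 for all genes tested. The 40 other astrocyte genes had 8 of 13 tested values above 0 and a median of 0.08. The 3 members with an unadjusted p under 0.05 were Slc1a2, Cst3 and Apoe. These were also the members higher with g4 in all 7 animals, as were 1.94% of the genes tested. Of the 9 genes, Slc1a3, Glul, Clu and Aqp4 were higher in 6 of 7 animals, Gja1 in 5 and Aldoc in 4.

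Slc1a2 had the smallest adjusted p of the 9. The empty HA-positive libraries lay between 506 and 683 CPM, except that of animal 23 at 1016, and the g4 ones between 730.3 and 1687, so that 3 g4 libraries were above all empty ones. Its log2 fold change was 0.65 ± 0.18 (adjusted p = 0.364), and 0.64 ± 0.20 without animal 19's g4 library (adjusted p = 0.472). With no filter on low counts Slc1a2 was called, at 0.71 ± 0.14 (adjusted p = 0.000388), whereas with the animal as a block it was not, at 0.64 ± 0.13 (adjusted p = 0.0835). The highest g4 library, that of animal 21 at 1687 CPM, weighed on the size: without both HA-positive libraries of that animal the value was 0.53 ± 0.17 (adjusted p = 0.624). Slc1a2 lies on the plus strand of chromosome 2, from 102658659 to 102790784.

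Cst3 ran from 60.5 to 154 CPM in empty and from 146 to 220 in g4 HA-positive libraries, and 6 of 7 g4 libraries were above all empty ones. Its log2 fold change was 0.53 ± 0.20 (adjusted p = 0.696). The lowest empty and the highest g4 value were both in libraries titled animal 19. Without its g4 library, the one with both Xist and Y-linked counts, the change was 0.47 ± 0.21 (adjusted p = 0.763). Apoe was at 16.3 CPM with empty and 19.3 with g4 in animal 20, the lowest pair, and at 22.0 and 79.6 in animal 19. Its fit gave 0.75 ± 0.36 (adjusted p = 0.736), or 0.66 ± 0.39 without animal 19's g4 library (adjusted p = 0.864). The remaining values were 0.84 ± 0.48 for Gja1, 0.61 ± 0.52 for Slc1a3, 0.48 ± 0.32 for Clu, 0.47 ± 0.44 for Aqp4, 0.30 ± 0.27 for Glul and 0.30 ± 0.38 for Aldoc, with adjusted p-values from 0.754 to 0.929. Excitatory and inhibitory neuron markers, none of them called, had medians of 0.26 (10 of 12 above 0) and -0.27 (3 of 12 above 0) in the same comparison. The part of a different mix of nuclei in the values of the 9 genes was not tested.

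**Figure D4:**
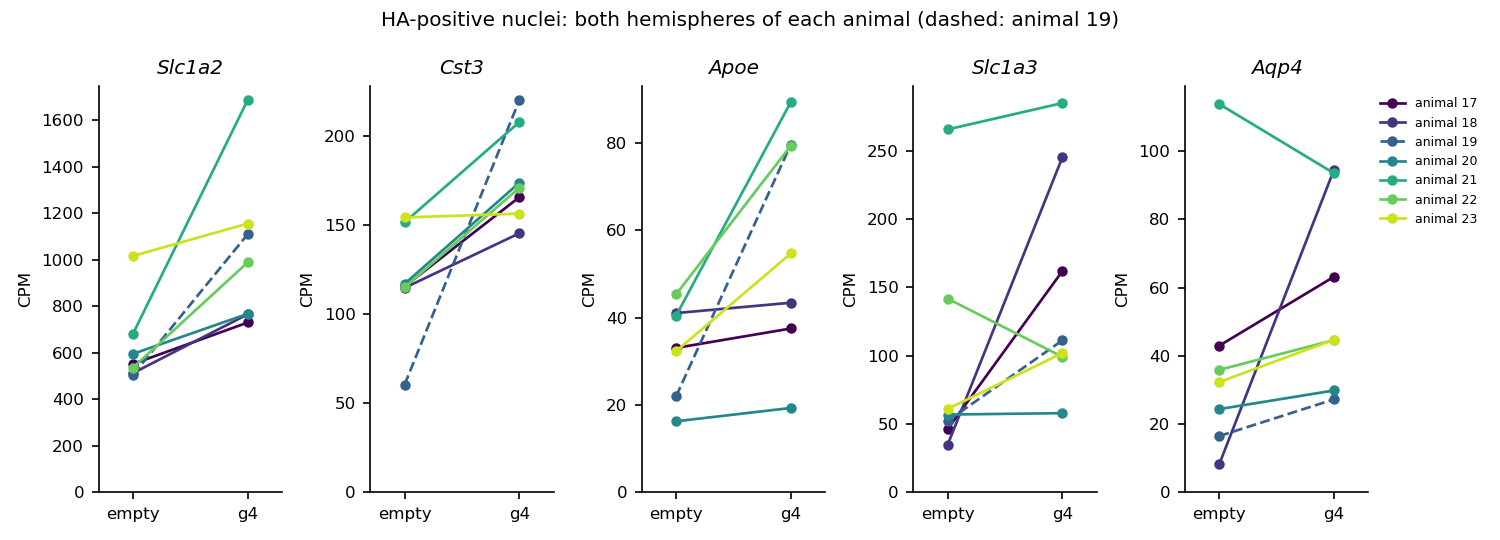
Level in HA-positive nuclei of both hemispheres of each animal for 5 of the genes (vertical axes: CPM, linear from 0; lines join the empty and the g4 library of 1 animal; dashed: animal 19). Slc1a2, Cst3 and Apoe are higher with g4 in 7 of 7 animals and Slc1a3 and Aqp4 in 6 of 7, while animal 21 is high in Slc1a3 (265 and 285 CPM) with both vectors.

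In HA-negative nuclei g4 and empty were compared in the same way. Of 6262 genes tested, 0% were called by edgeR (0 genes, against 236 at an unadjusted p under 0.05 and 1 by DESeq2), so 0 of the 9 were called. Slc1a3 was the member furthest from 0, with 85.1 to 128 CPM (median 101) in empty and 112 to 195 (median 129) in g4 libraries. It was higher with g4 in 7 of 7 animals, as were 0.878% of the genes tested, and 4 g4 libraries were above all empty ones. The log2 fold change was 0.45 ± 0.16 (adjusted p = 0.999), the only one of the 9 with an unadjusted p under 0.05. Slc1a2 (0.02 ± 0.09) and Cst3 (0.07 ± 0.12), the members with the smallest SEs, differed by less than their SEs, and the others lay between -0.29 ± 0.22 (Clu) and 0.17 ± 0.16 (Glul). With CPM by total count alone, without TMM factors, Slc1a3 was likewise at 143 against 103.

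Whether the g4 effect differed between HA-positive and HA-negative nuclei was tested with all 28 libraries in 1 model, which had no term for the animal. A fit with the animal as a block called 0 genes as well. Of 7197 genes tested, 0% were called (0 genes by edgeR and 0 by DESeq2, and 359 at an unadjusted p under 0.05), and 0 of the 9 passed. All 9 differences were above 0, as were 53.2% of the genes tested, with a median of 0.47 against 0.03 for all genes tested. Markers of other glia lay above 0 by more, with none called: microglia markers in 10 of 10 (median 1.41) and oligodendrocyte markers in 10 of 12 (median 1.54). Without animal 19's g4 HA-positive library the medians were -0.14 for microglia (3 of 10 above 0), 0.60 for oligodendrocyte markers (10 of 13) and 0.48 for the 9 genes (9 of 9), and the part of other glia in the values of the 9 was not tested. The largest were Apoe at 1.01 ± 0.40 (adjusted p = 0.924), Gja1 at 0.83 ± 0.58, Clu at 0.81 ± 0.39 and Slc1a2 at 0.64 ± 0.21 (adjusted p = 0.924). Apoe, Slc1a2, Cst3 (0.47 ± 0.21) and Clu had an unadjusted p under 0.05. With animal 19's g4 HA-positive library left out, Apoe was at 0.90 ± 0.41, Gja1 at 0.75 ± 0.60, Clu at 0.66 ± 0.40 and Slc1a2 at 0.62 ± 0.22. Cst3 was then at 0.40 ± 0.22 and the others between 0.09 (Glul) and 0.48 (Aqp4). Slc1a3 and Aqp4 were below 0 when animal 18 was left out (-0.10 and -0.08). These values use the same libraries as the comparisons above and are not a further sample of them. The changes of Slc1a2 and Apoe between fractions, called with empty and not with g4, were therefore not shown to differ between vectors.

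The 3′ untranslated regions (3′ UTRs) of the 9 genes were searched for sites of the microRNA that both vectors name. The letters searched, on the transcript's strand, were GTGCCTT and TGCCTTA, which pair with the miR-124 seed, and the longer site in which they overlap. The longest annotated 3′ UTR held 1 TGCCTTA in Apoe (271 bases) and 1 in Aldoc (1427 bases), and no site in the other 7 genes, Slc1a2 with 9250 bases included. They are shown with 11 bases on either side, the matching letters in capitals.
Apoe, site at chr7:19696209-19696215, minus strand: ttattgtttttTGCCTTAcctagcacaca
Aldoc, site at chr11:78326488-78326494, plus strand: cacatctcacaTGCCTTAcattgctgtac
Of 21037 genes with an annotated 3′ UTR, 19.65% held at least 1 of these sites and 2.686% the longer one. In HA-positive nuclei, g4 against empty gave 0.75 ± 0.36 for Apoe and 0.30 ± 0.38 for Aldoc, inside the range of 0.30 to 0.84 over the 9 genes. A match describes letters only.

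Among themselves, the 9 genes varied together in part. After the group mean of log2(CPM + 1) was removed, the Spearman correlation over the 28 libraries was 0.68 for Apoe with Aldoc, 0.61 for Slc1a2 with Gja1, 0.60 for Glul with Gja1 and 0.56 for Slc1a3 with Aqp4, while Clu with Aqp4 was at -0.11. These are descriptions over libraries that share depth and animals. Slc1a3 and Aqp4 were both high in the HA-positive libraries of animal 21, at 265 and 285 CPM for Slc1a3 and 114 and 93.5 for Aqp4 (empty, then g4), and in the g4 library of animal 18 (245 and 94.4). In HA-negative nuclei the SD of Slc1a3 was 13.9 (empty) and 31.9 CPM (g4), against 83.3 and 83.8 in HA-positive nuclei. The variance of Slc1a3 over that of counting alone was 29.9 (empty) and 27.0 (g4) in HA-positive and 1.14 and 3.50 in HA-negative libraries. Aqp4 stands on chromosome 18, Slc1a3 on the minus strand of chromosome 15 from 8634124 to 8710764, and Gja1 on the plus strand of chromosome 10 from 56377330 to 56402513. Apoe lies on chromosome 7 from 19696109 to 19699188 (minus), Clu on chromosome 14 from 65968483 to 65981547 (plus) and Aldoc on chromosome 11 from 78322968 to 78327781 (plus).

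The genes whose levels ran most like those of the members were sought among 5840 genes with a mean of at least 20 CPM, by Spearman correlation of log2(CPM + 1) over the 28 libraries. For Slc1a2 they were Rnf13 (0.75), Grn (0.74) and Mal (0.74). For Apoe they were Mal (0.84), a myelin protein gene, Gpm6b (0.82), a glial membrane protein gene, and Tle4 (0.81), a transcriptional corepressor gene. For the mean of the 9 they were Abca1 (0.79), the cholesterol exporter that loads lipid onto apolipoproteins, Rassf2 (0.78) and Clmn (0.76). When animal 19's g4 HA-positive library was left out the same genes led, at 0.76, 0.76 and 0.76, at 0.85, 0.82 and 0.81, and at 0.80, 0.79 and 0.76. Group means were not removed here, so differences between the 4 groups enter these correlations.

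Of 16 genes that mark reactive astrocytes, only Stat3 passed the filter on low counts, and it was called in none of the 5 comparisons (HA-positive nuclei: 28.2 ± 8.44 CPM with empty and 32.9 ± 15.8 with g4, HA-negative nuclei: 24.7 ± 14.0 and 21.2 ± 8.24). The 16 together summed to 45.0 ± 13.2, 55.6 ± 23.7, 52.9 ± 19.5 and 48.1 ± 11.5 CPM in the same order. Lcn2, Steap4, Cd44, Osmr, Aspg, Hspb1, Gbp2 and Nes had no count in the 7 libraries of empty HA-positive nuclei.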

How the data were processed

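RNA of sorted nuclei was measured in 28 libraries. The deposited values are raw read counts of genes, as the labels name them, and all are whole numbers. The submitters' processing notes name the build GRCm38, while aligner, counter and strand setting were not stated. Groups and animal numbers came from the sample titles, and descriptions tied samples to columns (for 3 animals the column number was 1 higher). Cells without a value were read as 0, and 1 row without a gene name per table was left out, so that it takes no part in library sizes. Gene positions, exon lengths and 3′ UTRs came from the GENCODE annotation of GRCm38 (41474 of 41549 genes matched by identifier), promoters from RefSeq (GRCm38.p6; those of 7 of the 9 genes were used).

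Genes were tested with edgeR 4.0.16 under R 4.3.3, by a robust, two-sided quasi-likelihood fit after filterByExpr and TMM scaling, adjusted by Benjamini-Hochberg over all genes tested. The main fit had no term for the animal. The script was also run on simulated counts with the same setting of spread for every gene. That run cannot show how the test behaves in libraries as variable as the HA-positive ones. All 9 genes passed the filter in the 5 comparisons, so no exact test of low genes was needed. CPM used TMM factors over all 28 libraries. Alternatives were DESeq2 1.42.0, its size factors in edgeR, no filter, the animal as a block, each animal left out, libraries under 10000 genes left out, ribosomal and mitochondrial RNA left out, and the g4 HA-positive library of animal 19 left out. Leaving out the HA-positive libraries of animal 21, and leaving out the library of animal 19 together with the block, were chosen after seeing the data. Same-numbered libraries come from the same animal by their titles, and their deviations from the group means correlated at -0.10 to 0.13. 

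Besides the 9 genes, 15 lists were used. The rule for naming genes took all 9 members and, from each other list, up to 3 called genes per direction and comparison, or, where 0 were called, up to 2 of the highest mean CPM. Some genes this rule names, those of the other cell types among them, are not reported here. The members and lists were chosen with earlier results of these data known.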

Additional observations from a re-analysis of the deposited data

Results flagged for a closer look

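Of the 36 sets of 7 values (9 genes in 4 groups), 6 had 1 library far from the others, with a gap to the next value above 0.568 of the whole range, where chance gives about 1 in 20. In empty HA-positive nuclei, Slc1a2 was at 1016 CPM in animal 23, with the next library at 683. Cst3 was at 60.5 CPM in animal 19, with the next at 115. Aqp4 was at 114 CPM in animal 21, with the next at 43.0. In empty HA-negative nuclei, Apoe was at 199 CPM in animal 22, with the next at 115, and Aldoc at 65.7 CPM in animal 23, with the next at 41.6. In g4 HA-negative nuclei, Aldoc was at 57.0 CPM in animal 21, with the next at 37.7. Without animal 23, Slc1a2 remained called lower in empty HA-positive than in empty HA-negative nuclei, and Cst3 remained so without animal 19.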

How the results depend on the processing

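The count of called members was 4 and 2 in the comparisons of fractions (empty, g4) and 0 in the other 3, and it stayed within 1.5 times of that in every alternative run except g4 against empty in HA-positive nuclei with no filter on low counts, where it was 1 (Slc1a2). With each animal left out in turn, the comparison of fractions with empty gave 3 to 4 called members. The group means of CPM moved by less than 1 SD without TMM factors or without animal 19's g4 HA-positive library. With the animal as a replicate block, the counts of called members were 4, 2, 0, 0 and 0, and the block changed no call of a member. Of single genes, Glul with empty lost its call in 5 settings and Slc1a3 with empty and Slc1a2 in g4 against empty gained one, as given above. Over all genes, g4 against empty in HA-positive nuclei gave 3 calls, against 11 by DESeq2, 1 with the block and 28 with no filter. In HA-negative nuclei it gave 0 calls, against 1 by DESeq2, and the difference between fractions gave 0, against 3 with no filter. Of the comparison of fractions with empty, 661 genes were called with no filter, against 194 lower and 194 higher. Gja1 could not be tested in HA-positive nuclei without animal 21, where it fell under the count filter. Leaving out animal 19's g4 HA-positive library does not apply where it does not enter, and no HA-negative library had under 10000 genes. Gja1 had 3 to 72 counts per HA-positive library, and what size of change the depth allows was not measured.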
